A study of Rattus norvegicus with 111 samples.

Results

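Ppara and Ppargc1a, a pair of genes that regulate fat use in liver, were followed through every dose group of a rat study of 2 perfluoroalkyl ether acids. They were chosen by their Ensembl identifiers, ENSRNOG00000021463 for Ppara and ENSRNOG00000004473 for Ppargc1a, and are 2 of the 20311 genes in the deposited tables. Ppara was lower in fetal liver at 10 and 30 mg/kg/d PFO5DoA, with 38.5 ± 2.96 CPM (SD, n = 4 dams) and 37.8 ± 3.35 CPM (n = 3), against 71.6 ± 17.9 CPM in control fetal liver (n = 5). CPM is the count of a gene scaled to the total count of its library. Ppargc1a had a falling trend with dose in maternal liver under both chemicals and in fetal liver under PFO4DA, from few counts per library. None of these 3 trends passed its test within a single run of dam numbers, where it could be fitted. The maternal mean under PFO5DoA was 0.399 CPM at 10 and 0.677 CPM at 30 mg/kg/d, so that fall was not even. Relative to the controls of each chemical, fetal Ppara was lower under PFO5DoA than under PFO4DA at 10 and at 30 mg/kg/d.

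Time-mated Sprague-Dawley rats, about 11 to 12 weeks old when bought, received PFO5DoA or PFO4DA by mouth from gestational day 18 to 22. Subsamples of maternal and fetal liver were taken on the last day and read with TempO-Seq, in which probe pairs are ligated on each RNA and counted. PFO5DoA dams with usable libraries received 0.1 (2 dams), 0.3 (3), 1 (3), 3 (4), 10 (4) or 30 mg/kg/d (4 maternal and 3 fetal livers), against 5 control dams. PFO4DA dams received 0.3, 1, 3, 10, 30 or 62.5 mg/kg/d (4 dams each), against 6 control dams. The labels name no genetic change, and all dams, controls included, received the vehicle, 0.5% Tween-80. PFO5DoA has a single difluoromethoxy unit more than PFO4DA. The labels record that dams at 30 mg/kg/d PFO5DoA weighed less than controls by the last day and that 1 of them had apparent fetal toxicity, and the part of either in the values at that dose cannot be told apart from the dose itself. Whether a fetal library came from 1 fetus or from several was not given in the sources used here.

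The column names give the dam but not the liver. The labels give the only library of dam 2286, which received 30 mg/kg/d PFO5DoA, as maternal. Within each dam, the library whose profile correlated more closely with that library was taken as maternal liver and the other as fetal liver. "Maternal" and "fetal" below mean libraries assigned in this way. The correlation of log2(CPM + 1) was 0.943 to 0.988 for the libraries assigned to maternal liver. It was 0.861 to 0.923 for those assigned to fetal liver, and the smallest gap within a dam was 0.0524. The lowest maternal value was that of a PFO5DoA control dam, and the highest that of another 30 mg/kg/d PFO5DoA dam. All 109 libraries kept their stage when Ppara and Ppargc1a were left out of the profile, and when rank correlation was used. Leaving out 2 of 20311 genes could hardly move a correlation. Both checks reuse the same profiles and the same reference library, so they are no independent test of the labels. Dam 2279, a PFO5DoA control, was dropped, since 1 of its libraries held 45505 counts. The other libraries held 7132999 to 15254939 counts. Dams fell into 2 runs of dam numbers for each chemical, each run opening with its own controls. The code that ends each column name was not used in the assignment. Within each run, libraries assigned to fetal liver came first in the order of that code and those assigned to maternal liver followed. A difference between livers thus cannot be told apart from a difference along that order. The labels do not say what a run is. Values within single runs are given beside the trends, the called single-dose changes and those at the highest doses where they could be fitted. They are also given beside other changes that differed widely between the runs. Differences between chemicals and between livers were not fitted within single runs.

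Ppara encodes PPAR alpha, a nuclear receptor that binds fatty acids and drug ligands and switches on genes of fatty acid uptake, peroxisomal and mitochondrial fatty acid oxidation and ketone body formation. It is abundant in liver, and in rodents its activation enlarges the liver and multiplies peroxisomes. Many perfluoroalkyl acids activate it. Ppargc1a encodes PGC-1 alpha, a coactivator with no DNA-binding domain of its own, which docks on PPAR alpha, HNF4 alpha and other factors and raises mitochondrial biogenesis, fatty acid oxidation and, in fasted liver, gluconeogenesis. Its transcription is induced by glucagon and cyclic AMP through the factor CREB. Near birth, rodent liver shifts from carbohydrate use to the fat of milk, and both genes take part in that shift.

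The regions around the RefSeq start of each gene (build GRCr8, 250 bases before to 50 after) are shown because a transcript level is what was measured for both, and because the pair starts in very different sequence. Capitals mark the letters GGGCGG, a GC box, in Ppara and TGACGTCA, a cAMP response element, in Ppargc1a, both searched on both strands, with no overlap between matches. They run 5′ to 3′ on the plus strand, Ppara at chr7:118712357-118712656 and Ppargc1a at chr14:63634058-63634357.
Ppara: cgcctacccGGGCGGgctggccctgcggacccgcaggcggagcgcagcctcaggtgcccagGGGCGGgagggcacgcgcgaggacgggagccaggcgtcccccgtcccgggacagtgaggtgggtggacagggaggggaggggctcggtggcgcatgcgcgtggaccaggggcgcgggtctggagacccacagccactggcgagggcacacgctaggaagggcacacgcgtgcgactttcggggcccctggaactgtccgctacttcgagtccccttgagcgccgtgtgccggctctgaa
Ppargc1a: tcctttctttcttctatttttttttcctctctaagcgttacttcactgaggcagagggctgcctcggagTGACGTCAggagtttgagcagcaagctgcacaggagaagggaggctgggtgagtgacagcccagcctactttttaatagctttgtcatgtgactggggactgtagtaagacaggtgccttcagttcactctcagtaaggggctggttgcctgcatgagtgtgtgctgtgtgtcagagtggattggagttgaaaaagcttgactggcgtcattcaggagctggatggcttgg
The Ppara window was 73.7% G or C and held 2 GC boxes and no cAMP response element. The Ppargc1a window was 50.3% G or C and held 1 cAMP response element, 181 bases before the start, and no GC box. Over 33469 RefSeq promoters of the same length, the median was 51.7% G or C, 33.1% held a GC box and 1.83% held the cAMP response element. These matches describe letters and not binding, and the coordinates belong to GRCr8, not to mRatBN7.2, the build that the submitters' processing notes name.

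In control dams both transcripts were higher in the fetal than in the maternal library. Ppara measured 47.2 to 96.1 CPM with a median of 58.6 CPM in control fetal liver, against 8.79 to 20.3 CPM with a median of 14.8 CPM in control maternal liver. It was higher in the fetal library of all 11 control dams, by a median ratio of 4.45. Over all doses the fetal library was higher in 54 of 54 dams, with ratios from 1.37 to 9.51 and a median of 3.68. Ppargc1a measured 1.11 to 4.52 CPM with a median of 2.14 CPM in control fetal liver, against 0.467 to 2.21 CPM with a median of 1.07 CPM in control maternal liver. It was higher in the fetal library of 11 of 11 control dams, the smallest ratio being 1.01, and of 50 of 54 dams over all doses. These levels are a description with no test, because the assignment of the livers itself rests on expression. Of 10323 genes with a mean of at least 1 CPM in control libraries, 3449 (33.4%) were likewise higher in the fetal library of every control dam. In bulk tissue, fewer cells of a type and less RNA per cell cannot be told apart. Levels of Ppara and Ppargc1a are not compared with each other, since each has its own probe.

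**Figure D1:**
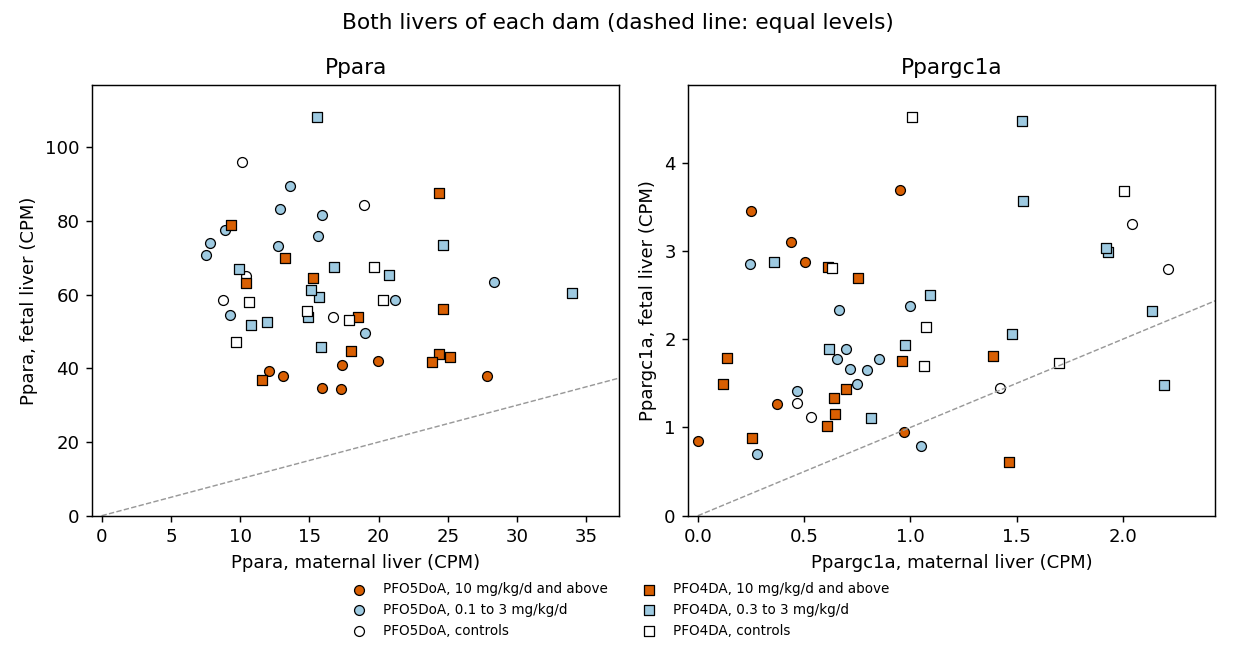
Level in the fetal (vertical) against the maternal library (horizontal) of each of the 54 dams with both, in CPM, for Ppara (left) and Ppargc1a (right). Circles are PFO5DoA and squares PFO4DA dams, filled by dose range, and the dashed line marks equal levels. All 54 dams lie above the line for Ppara and 50 of 54 for Ppargc1a.

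Changes were tested with edgeR's quasi-likelihood test, and "changed" means a Benjamini-Hochberg adjusted p under 0.05 over all genes of the fit. Of 44 tests of a single dose against its controls, 22 for each gene, 4 passed. They were Ppara in fetal liver at 10 and at 30 mg/kg/d PFO5DoA, Ppargc1a in maternal liver at 10 mg/kg/d PFO5DoA, and Ppargc1a in fetal liver at 62.5 mg/kg/d PFO4DA. Of the 8 trends with log2(dose + 1), 4 passed, 1 for Ppara and 3 for Ppargc1a.

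More genes were called at the higher doses. In PFO5DoA maternal liver, 0%, 0.452%, 2.65%, 14.0% and 39.8% of 10615 genes were called at 0.3, 1, 3, 10 and 30 mg/kg/d, and 42.2% had a trend. In PFO5DoA fetal liver, 0.113%, 2.40%, 7.08%, 14.7% and 29.9% of 11509 genes were called at the same doses, and 36.0% had a trend. PFO4DA called fewer. In PFO4DA maternal liver, 0%, 0%, 0%, 0.00974%, 0.633% and 2.46% of 10263 genes were called at 0.3, 1, 3, 10, 30 and 62.5 mg/kg/d, and 2.80% had a trend. In PFO4DA fetal liver, 0%, 0%, 0.304%, 2.64%, 6.44% and 10.6% of 11172 genes were called, and 18.9% had a trend. Where edgeR called none, 562 genes had an unadjusted p under 0.05 at 0.3 mg/kg/d PFO5DoA in maternal liver and DESeq2 called 4. For PFO4DA in maternal liver, 269, 221 and 285 genes had an unadjusted p under 0.05 at 0.3, 1 and 3 mg/kg/d, and DESeq2 called 4, 1 and 0. For PFO4DA in fetal liver, 1125 and 876 genes had one at 0.3 and 1 mg/kg/d, and DESeq2 called 0 and 5.

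Ppara, the receptor gene, was lower in every fetal library at 10 and 30 mg/kg/d PFO5DoA than in any control fetal library. It measured 41.9, 34.8, 39.2 and 38.0 CPM at 10 mg/kg/d and 34.3, 41.0 and 38.0 CPM at 30 mg/kg/d, against 54.0, 96.1, 65.0, 58.6 and 84.3 CPM in controls. The 7 dosed libraries lay within a narrow band below the lowest control, while the controls were spread more widely. The log2 fold change was -1.06 ± 0.16 (SE, adjusted p = 7.52e-05) at 10 mg/kg/d, or 0.481 times the control level on the scale of the test. The change at 30 mg/kg/d was -1.19 ± 0.18 (adjusted p = 3.27e-05), or 0.439 times the control level on that scale, so the higher of these doses gave nearly the same level as the lower one. The test scales libraries by more than their totals. In mean CPM, which uses totals only, the ratios to controls were 0.538 at 10 and 0.528 at 30 mg/kg/d. At these doses, 14.7% and 29.9% of all genes tested in fetal liver were called. The share of all genes whose dosed libraries likewise all lay outside the control range was not computed.

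At the lower doses of PFO5DoA, fetal Ppara overlapped the controls. It measured 89.4 and 83.3 CPM at 0.1 mg/kg/d, 77.5, 73.1 and 75.9 CPM at 0.3 mg/kg/d, 54.4, 70.7 and 74.0 CPM at 1 mg/kg/d, and 58.5, 49.5, 81.7 and 63.5 CPM at 3 mg/kg/d. Among these 12 libraries, 1, at 3 mg/kg/d, lay below the lowest control. The log2 fold changes were 0.24, 0.04 and -0.12 at 0.3, 1 and 3 mg/kg/d, with adjusted p of 1.00, 0.928 and 0.787. The 0.1 mg/kg/d dams entered no test. The trend was -0.29 ± 0.04 per unit of log2(dose + 1) (adjusted p = 1.36e-06), with 36.0% of genes called. Within the first run of dams alone the trend was -0.33 ± 0.06 (adjusted p = 0.00111), and within the second it was -0.26 ± 0.06 (adjusted p = 0.0147). The change at 10 mg/kg/d was -1.11 within the first run (adjusted p = 0.00122) and -0.97 within the second (adjusted p = 0.0994), where the call was lost with 2 dosed and 2 control dams. The 30 mg/kg/d dams were all of the second run, within which the change was -1.11 (adjusted p = 0.0148). No dam's omission ended the calls at 10 or 30 mg/kg/d or of the trend.

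**Figure D2:**
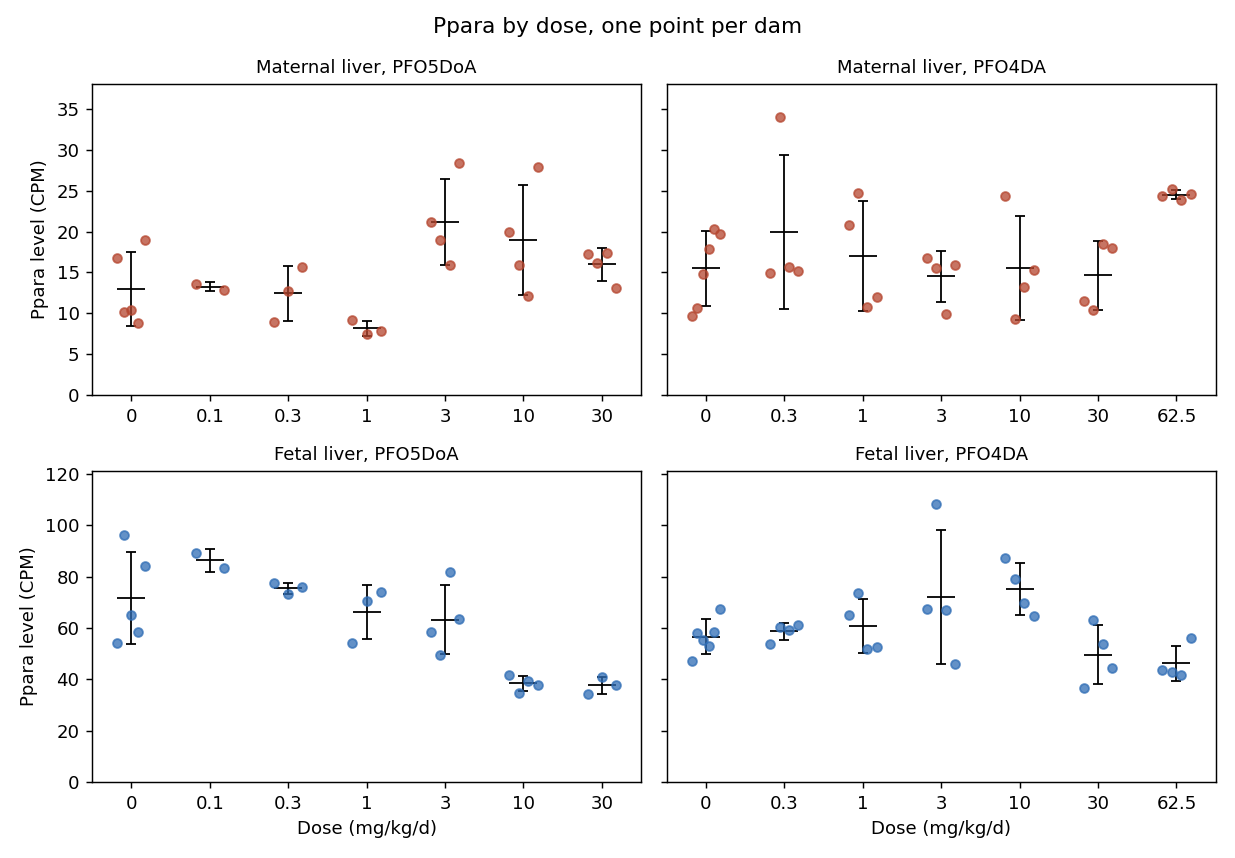
Ppara level in CPM (vertical) by dose in mg/kg/d (horizontal), in maternal (top) and fetal liver (bottom), for PFO5DoA (left) and PFO4DA (right). Each point is a dam, and black bars give the mean and SD of the dose group. Fetal Ppara at 10 and 30 mg/kg/d PFO5DoA lies between 34.3 and 41.9 CPM, below every control library of that panel.

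No dose of PFO5DoA passed the test for maternal Ppara, with 0%, 0.452%, 2.65%, 14.0% and 39.8% of genes called at these doses. Maternal levels were 16.7, 10.1, 10.5, 8.79 and 18.96 CPM in controls, 8.92, 12.8 and 15.6 CPM at 0.3 mg/kg/d, and 9.24, 7.51 and 7.87 CPM at 1 mg/kg/d. They were 21.2, 18.99, 15.9 and 28.3 CPM at 3 mg/kg/d, 19.9, 15.9, 12.1 and 27.8 CPM at 10 mg/kg/d, and 17.3, 16.2, 17.4 and 13.1 CPM at the highest dose. Of the 4 dams at 3 mg/kg/d, 3 stood above all controls, and the 4 dams at 30 mg/kg/d lay within the control range. The largest log2 difference was 0.65 ± 0.24 at 3 mg/kg/d (adjusted p = 0.155). The highest dose gave a difference of 0.08 (95% interval -0.39 to 0.55), an interval that does not reach the size of the fetal change, and -0.03 within the second run, which holds all dams of that dose (adjusted p = 0.967). The maternal trend was 0.06 ± 0.05 per unit (adjusted p = 0.345). It was 0.19 within the first run (adjusted p = 0.185) and -0.04 within the second (adjusted p = 0.751).

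The trends of the 2 livers of the same dams were compared in a fit with the dam as a block. For Ppara under PFO5DoA, the maternal minus the fetal slope was 0.37 ± 0.07 per unit of log2(dose + 1) (adjusted p = 0.000232), and 20.0% of 11968 genes had slopes that differed. The call held without any single dam, with adjusted p of at most 0.00111. The difference was not fitted within single runs. There, the separate trends were 0.19 maternal and -0.33 fetal in the first run. In the second run they were -0.04 maternal and -0.26 fetal. Under PFO4DA the difference was 0.11 ± 0.04 (adjusted p = 0.141), with 5.54% of 11610 genes called.

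No dose of PFO4DA passed the test for Ppara in either liver with all doses and dams in the fit. In maternal liver at 62.5 mg/kg/d it measured 24.3, 25.2, 23.8 and 24.6 CPM, against 9.71 to 20.3 CPM with a median of 16.3 CPM in the 6 control dams. The 4 dosed dams lay close together and above all controls, with 2.46% of genes called in that comparison. How large a share of all genes likewise lay wholly outside the controls was not computed. The log2 fold change was 0.58 ± 0.24 (adjusted p = 0.256), and it passed only where that dose and its controls were fitted alone, with 0.57 and an adjusted p of 0.0403. All dams at this dose were of the second run, whose 3 control dams had 17.9, 20.3 and 19.7 CPM, against which the difference was 0.34 ± 0.14 (adjusted p = 0.304). In fetal liver at 62.5 mg/kg/d Ppara measured 43.9, 43.1, 41.8 and 56.3 CPM, against 47.2 to 67.5 CPM with a median of 56.8 CPM in controls. Of these 4 dams, 3 lay below all controls. The log2 fold change was -0.47 ± 0.16 (adjusted p = 0.0665, with 10.6% of genes called). It passed within the second run, at -0.45 ± 0.13 (adjusted p = 0.0453), and where that dose and its controls were fitted alone, at -0.46 (adjusted p = 0.0219).

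At the middle doses of PFO4DA, 7 of the 8 fetal Ppara levels lay within or above the control range. At 3 mg/kg/d it measured 67.4, 108.3, 66.9 and 45.9 CPM and at 10 mg/kg/d 87.5, 79.1, 69.9 and 64.6 CPM, and 3 of the 4 dams at 10 mg/kg/d exceeded all controls. The log2 difference was 0.34 ± 0.16 at each of these doses, with adjusted p of 0.702 and 0.299. At 30 mg/kg/d the levels were 36.8, 63.3, 54.0 and 44.6 CPM, and the difference was -0.24 ± 0.16 (adjusted p = 0.482). The fetal trend over all doses was -0.07 ± 0.03 per unit (adjusted p = 0.0842, with 18.9% of genes called). It was 0.0033 within the first run (adjusted p = 0.993), which holds no 62.5 mg/kg/d dam, and -0.075 within the second (adjusted p = 0.00889), and it passed without dam 2303 (adjusted p = 0.0477). The maternal trend was 0.03 ± 0.03 (adjusted p = 0.789), with -0.11 within the first run (adjusted p = 0.681) and 0.08 within the second (adjusted p = 0.0681). The remaining PFO4DA differences of Ppara lay between -0.10 and 0.37 in maternal liver, and at 0.12 and 0.13 at 0.3 and 1 mg/kg/d in fetal liver. In maternal liver those at 0.3 and 1 mg/kg/d had opposite signs in the runs, 0.92 and 0.87 within the first and -0.22 and -0.61 within the second, none called.

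The chemicals were compared at the 5 doses they share, as the change under PFO5DoA minus the change under PFO4DA, each against its own controls. Over both genes and both livers this made 20 comparisons, each with p adjusted over all genes tested, and 2 of them passed. Fetal Ppara was lower under PFO5DoA, with a difference of -1.40 ± 0.23 at 10 mg/kg/d (95% interval -1.85 to -0.94, adjusted p = 0.000106), where it measured 34.8 to 41.9 CPM under PFO5DoA and 64.6 to 87.5 CPM under PFO4DA. At 30 mg/kg/d the difference was -0.96 ± 0.24 (95% interval -1.43 to -0.48, adjusted p = 0.00502), with 34.3 to 41.0 CPM under PFO5DoA and 36.8 to 63.3 CPM under PFO4DA. Control fetal livers had a mean of 71.6 CPM for PFO5DoA (54.0 to 96.1) and 56.7 CPM for PFO4DA (47.2 to 67.5). Both differences rest on these controls as well as on the dosed livers, whose ranges overlapped at 30 mg/kg/d. Leaving out single dams ended neither call, and with the run as a covariate the differences were -1.33 and -0.98, both called. In fetal liver, 0.00852%, 0.707%, 1.56%, 4.07% and 13.6% of 11732 genes differed between the chemicals at 0.3, 1, 3, 10 and 30 mg/kg/d.

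The other differences between the chemicals did not pass, and most of their intervals were wide. For fetal Ppara the difference was 0.14 (95% interval -0.33 to 0.61) at 0.3 mg/kg/d, -0.09 (-0.57 to 0.38) at 1 mg/kg/d and -0.45 (-0.90 to -0.0021) at 3 mg/kg/d. For maternal Ppara it was -0.42 (-1.15 to 0.31), -0.65 (-1.39 to 0.08), 0.75 (0.06 to 1.45), 0.35 (-0.34 to 1.04) and 0.13 (-0.56 to 0.82) from the lowest to the highest shared dose. In maternal liver, 0%, 0.128%, 0.804%, 8.55% and 20.0% of 10951 genes differed at these doses. At 0.3 mg/kg/d, 710 genes had an unadjusted p under 0.05 and DESeq2 called 3. For fetal Ppargc1a the differences lay between -0.72 at 3 mg/kg/d and 0.87 (-0.20 to 1.94) at 30 mg/kg/d. For maternal Ppargc1a the largest was -1.74 (-3.13 to -0.35) at 10 mg/kg/d, with an adjusted p of 0.114. Without dam 2283 it was -2.48 (adjusted p = 0.0477). The value at 30 mg/kg/d was 0.04 (-1.32 to 1.40), an interval that leaves room for a change of over 2-fold either way.

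**Figure D3:**
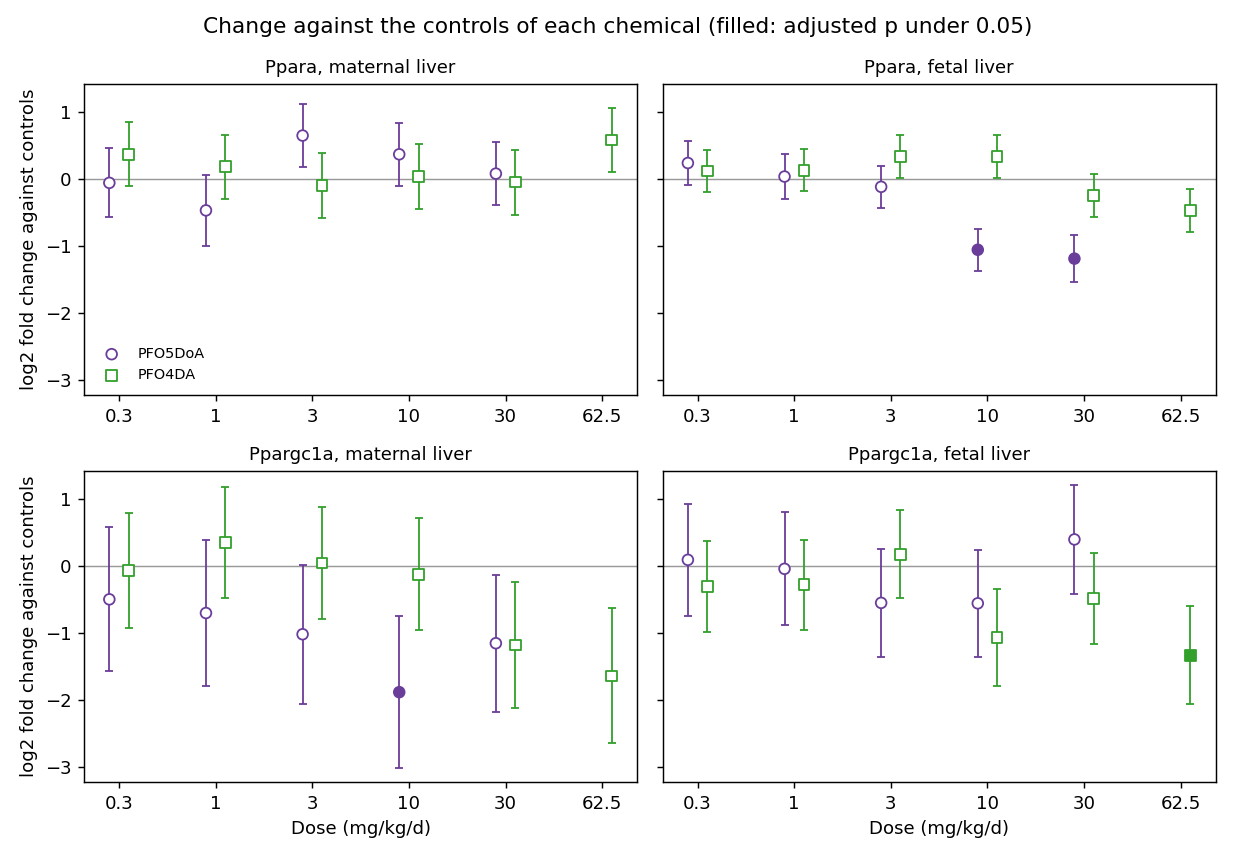
log2 fold change against the controls of the same chemical (vertical) by dose in mg/kg/d (horizontal) for PFO5DoA (circles) and PFO4DA (squares), Ppara above and Ppargc1a below, maternal liver left and fetal liver right. Bars are 95% intervals and filled symbols passed at an adjusted p under 0.05. The filled points are fetal Ppara at 10 and 30 mg/kg/d PFO5DoA, maternal Ppargc1a at 10 mg/kg/d PFO5DoA and fetal Ppargc1a at 62.5 mg/kg/d PFO4DA.

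Ppargc1a, the coactivator gene, was counted from 0 to 47 times per library, so each value below carries a large counting error. Maternal Ppargc1a under PFO5DoA measured 2.21, 2.04, 0.535, 1.42 and 0.467 CPM in controls, 1.00, 0.798 and 0.853 CPM at 0.3 mg/kg/d, and 0.656, 0.715 and 0.699 CPM at 1 mg/kg/d. The 2 dams at 0.1 mg/kg/d, left out of the main tests, had 0.749 and 0.247 CPM, and 1 of them lay below all controls. Their mean was 0.498 CPM, against 0.399 CPM at 10 mg/kg/d. The dams at 3 mg/kg/d had 1.05, 0.665, 0.469 and 0.280 CPM, those at 10 mg/kg/d 0, 0.373, 0.971 and 0.252 CPM, and those at 30 mg/kg/d 0.503, 0.816, 0.438 and 0.952 CPM. Of the 4 libraries at 10 mg/kg/d, 3 lay below all controls. The library at 0 counts allows up to 0.340 CPM. Summed over dams, there were 13 counts at 10 mg/kg/d (0.375 CPM, exact 95% Poisson interval 0.199 to 0.640, which covers counting error only), against 66 counts in controls (1.28 CPM, 0.986 to 1.62).

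Maternal Ppargc1a fell at 10 mg/kg/d PFO5DoA, with a log2 fold change of -1.88 ± 0.58 (adjusted p = 0.0303), and 14.0% of all genes were called there. The difference at 30 mg/kg/d was -1.15 ± 0.52 (adjusted p = 0.0816), and at 0.3, 1 and 3 mg/kg/d it was -0.50, -0.70 and -1.02, none called. The trend was -0.27 ± 0.09 per unit of log2(dose + 1) (adjusted p = 0.0212, with 42.2% of genes called). The controls themselves ranged widely, and single dams decided these calls. The change at 10 mg/kg/d was -1.68 without control dam 2263 (adjusted p = 0.0785), -1.67 without control dam 2264 (adjusted p = 0.0651), -1.47 without dam 2276 (adjusted p = 0.0850), -1.92 without dam 2277 (adjusted p = 0.0582) and -1.72 without dam 2284 (adjusted p = 0.0927). Without dam 2283 it was -2.63, with an adjusted p of 0.0132. Within the first run it was -2.93 (adjusted p = 0.0534). The trend was -0.23 without dam 2263 or dam 2264, with adjusted p of 0.0518 and 0.0531. It was -0.64 within the first run (adjusted p = 0.0558), and within the second run the gene fell below the filter on low counts and could not be fitted. With the run as a covariate the trend was -0.26 (adjusted p = 0.0880).

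**Figure D4:**
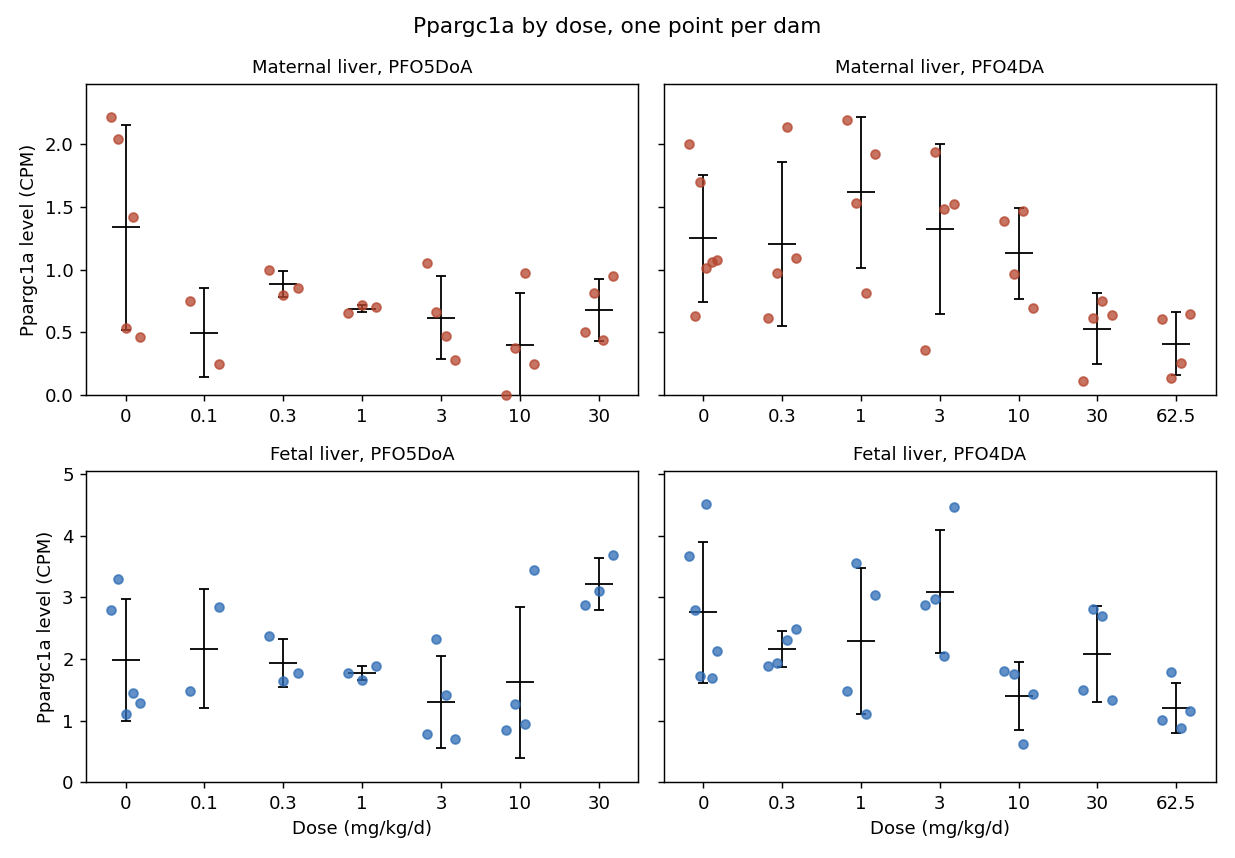
Ppargc1a level in CPM (vertical) by dose in mg/kg/d (horizontal), in maternal (top) and fetal liver (bottom), for PFO5DoA (left) and PFO4DA (right). Each point is a dam, and black bars give the mean and SD of the dose group. Maternal levels at 62.5 mg/kg/d PFO4DA lie between 0.139 and 0.646 CPM, with 3 of 4 dams below the lowest control.

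No dose of PFO5DoA passed the test for fetal Ppargc1a. At 30 mg/kg/d, where fetal Ppara was lowest, it measured 2.88, 3.10 and 3.69 CPM, against 2.79, 3.30, 1.11, 1.45 and 1.28 CPM in controls. The 3 dosed libraries stood in the upper part of the control range or above it, and the log2 difference was 0.40 ± 0.42 (adjusted p = 0.509). All 3 were of the second run, whose 2 control dams had 1.45 and 1.28 CPM, and within that run the 3 lay above both controls, with a difference of 1.06 ± 0.46 (adjusted p = 0.153). At 10 mg/kg/d it measured 0.845, 1.27, 0.945 and 3.45 CPM, with a difference of -0.56 ± 0.41 (adjusted p = 0.424), which was -1.38 within the first run (adjusted p = 0.0831) and 0.46 within the second (adjusted p = 0.717). Differences at 0.3, 1 and 3 mg/kg/d were 0.09, -0.04 and -0.55. The trend of 0.01 ± 0.07 (adjusted p = 0.920) joined opposite values in the runs, -0.36 ± 0.12 within the first run (adjusted p = 0.0550) and 0.25 ± 0.09 within the second (adjusted p = 0.0958). The first run holds no 30 mg/kg/d dam, and the second none at 0.3 or 1 mg/kg/d.

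The slopes of Ppargc1a in the 2 livers differed under PFO5DoA, with a maternal minus fetal slope of -0.30 ± 0.10 (adjusted p = 0.0340, with 20.0% of genes called), opposite in sign to that of Ppara. This call was lost without dam 2263, 2264, 2278, 2285, 2287 or 2288, each left out alone, with slopes from -0.33 to -0.27 and adjusted p of 0.0514 to 0.0892. The difference was not fitted within single runs, and the fetal trend given above had opposite signs in the 2 runs. Under PFO4DA the difference was -0.08 ± 0.08 (adjusted p = 0.717).

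Under PFO4DA, Ppargc1a had a falling trend with dose in both livers, called with all dams in the fit. Fetal Ppargc1a at 62.5 mg/kg/d measured 1.01, 1.79, 0.879 and 1.16 CPM, against 1.70 to 4.52 CPM with a median of 2.47 CPM in controls, and 3 of the 4 dosed dams lay below all controls. The log2 fold change was -1.33 ± 0.37 (adjusted p = 0.0159), or 0.397 times the control level on the scale of the test, with 10.6% of genes called. In mean CPM the ratio was 0.438. It was no longer called without dam 2319 (-1.25, adjusted p = 0.0569), dam 2321 (-1.20, adjusted p = 0.0705) or dam 2322 (-1.27, adjusted p = 0.0568). Within the second run, which holds all dams of that dose, it was -1.26 (adjusted p = 0.0910).

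The fetal change under PFO4DA did not grow evenly with dose. At 10 mg/kg/d Ppargc1a measured 1.81, 1.75, 0.613 and 1.43 CPM, a difference of -1.07 ± 0.37 (adjusted p = 0.127), but at 30 mg/kg/d it measured 1.49, 2.81, 2.69 and 1.34 CPM, a difference of -0.48 ± 0.35 (adjusted p = 0.527). At 0.3, 1 and 3 mg/kg/d the differences were -0.31, -0.28 and 0.17. The trend was -0.17 ± 0.05 per unit (adjusted p = 0.0162, with 18.9% of genes called). It was -0.13 within the first run (adjusted p = 0.598), -0.19 within the second (adjusted p = 0.0722) and -0.11 without the 62.5 mg/kg/d dams (adjusted p = 0.370).

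Maternal Ppargc1a under PFO4DA was low at the top 2 doses. At 30 mg/kg/d it measured 0.117, 0.613, 0.752 and 0.640 CPM and at 62.5 mg/kg/d 0.606, 0.139, 0.254 and 0.646 CPM, against 0.633 to 2.00 CPM with a median of 1.07 CPM in controls. These are 1 to 8 counts per dosed library, and 5 of the 8 libraries lay below all controls. The differences were -1.18 ± 0.48 (adjusted p = 0.570) and -1.64 ± 0.51 (adjusted p = 0.0926), and neither passed on its own. Within the second run, which holds all 62.5 mg/kg/d dams, that dose gave -1.28 ± 0.57 (adjusted p = 0.342). The change at 30 mg/kg/d was -1.92 within the first run (adjusted p = 0.746) and -0.48 within the second (adjusted p = 0.965). At the lower doses the differences were -0.07, 0.35, 0.05 and -0.12. The trend was -0.25 ± 0.07 per unit (adjusted p = 0.0274), in a comparison where 2.80% of genes were called. It was lost without dam 2293 (-0.23, adjusted p = 0.0582), dam 2320 (-0.22, adjusted p = 0.0746) or dam 2321 (-0.22, adjusted p = 0.0815), and was -0.18 without the 62.5 mg/kg/d dams (adjusted p = 0.508). Within the first run it was -0.20 (adjusted p = 0.673) and within the second -0.26 (adjusted p = 0.0558).

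Within dose groups, no relation between the 2 livers of a dam passed a test. After the mean of each dose group was taken off, maternal and fetal Ppara correlated over 52 dams with a Pearson r of 0.150 and a Spearman rho of 0.177 (permutation p = 0.326 and 0.268), and with r = 0.115 without the 2 most distant dams. For Ppargc1a, r was 0.235 and rho 0.219 (permutation p = 0.181 and 0.196), and r was 0.212 without those 2. Between Ppara and Ppargc1a the values were r = -0.116 and rho = -0.140 in maternal liver (53 dams, permutation p = 0.500 and 0.397), and r = 0.040 and rho = 0.088 in fetal liver (52 dams, permutation p = 0.813 and 0.600). None of these 4 relations passed after Benjamini-Hochberg adjustment, with adjusted p of at least 0.529. Within the 4 runs of dams, r lay between -0.41 and 0.35 for Ppara of the 2 livers, between -0.01 and 0.68 for Ppargc1a of the 2 livers, between -0.79 and 0.12 for the pair in maternal liver, and between -0.22 and 0.38 for the pair in fetal liver.

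The genes whose pattern over the libraries was most like that of each member were found from log2(CPM + 1) after the control mean of the same chemical was taken off. For Ppara in fetal liver the closest was ENSRNOG00000048114, with a Pearson r of 0.818 over 52 libraries, and for Ppargc1a in fetal liver ENSRNOG00000059579, with r = 0.698. In maternal liver, over 53 libraries, the closest genes had r = 0.761 for Ppara and r = 0.608 for Ppargc1a. The tables do not pair these identifiers with names. The libraries share dose groups, depth and scaling, so these values describe likeness only.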

How the data were processed

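RNA of maternal and fetal livers was read with a TempO-Seq panel of 22253 probes aimed at 20924 rat genes, per the labels' protocols. The authors deposited 1 table of estimated counts per chemical, not normalized, with 20311 genes each. Decimals stood in 12.2% of PFO5DoA values and 11.8% of PFO4DA values, and every value was rounded to a whole number here. Per the submitters' processing notes, the build was mRatBN7.2 and the tools included STAR 2.7.8a, Partek and DESeq2, with no step given for each.

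Groups came from the labels, through the dam number in each column name. Of 111 libraries, 109 were used. The liver of each library was assigned by its correlation with the library of dam 2286, so the assignment rests on expression values and not on a label. As a setting that needs no assignment, both libraries of a dam were thinned to equal totals and summed. Dams are separate animals.

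Tests used quasi-likelihood fits (R 4.3.3, edgeR 4.0.16) after filterByExpr and TMM scaling, robust, with 1 fit per chemical and liver and Benjamini-Hochberg adjustment over all genes. Standard errors are the size of the log2 fold change over the square root of F, and intervals are 1.96 standard errors. Such intervals are somewhat narrower than the F test implies. Levels are CPM of the library total. The difference between chemicals was an interaction contrast in a joint fit per liver. The difference between livers was the interaction with log2(dose + 1), with dams as blocks. DESeq2 1.42.0, RLE scaling, no filter on low counts, each dam left out, dam runs, the replicate number as a block, subsets of doses and other dose scales were tried. The value for each run of dams alone was added after the data were seen. Correlations used 100000 permutations. The main tests, not the other settings, were also run on simulated counts with genes changed at random, and no outcome is given here. That run did not single out genes with few counts such as Ppargc1a.

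The named genes were Ppara and Ppargc1a, chosen, like all lists, with earlier results of these data known, plus the closest genes by pattern among those with a mean of at least 5 CPM. The 0.1 mg/kg/d PFO5DoA dams were left out of the main tests, which follows the labels, and were kept in an alternative setting. 0 of the 20311 identifiers could be paired with a name, so lists of PPAR alpha targets, partner genes and cell type markers could not be looked up, and the liver labels were not checked against markers. Promoter sequences are from RefSeq, matched by symbol for 2 of 2 genes.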

Additional observations from a re-analysis of the deposited data

Results flagged for a closer look

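Among 42 dose groups of 4 to 6 dams that were checked for a library far from the rest (21 for each gene), 3 held one, and chance flags about 1 group in 20. Dam 2322, at 62.5 mg/kg/d PFO4DA, had 56.3 CPM of fetal Ppara, above the other 3 dams at 41.8 to 43.9 CPM. Dam 2297, at 0.3 mg/kg/d PFO4DA, had 34.0 CPM of maternal Ppara, above the other 3 dams at 14.9 to 15.7 CPM. Dam 2284, at 10 mg/kg/d PFO5DoA, had 3.45 CPM of fetal Ppargc1a, above the other 3 dams at 0.845 to 1.27 CPM.

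Effects that differed between groups by a test of the difference were of 2 kinds. Fetal Ppara differed between the chemicals, PFO5DoA minus PFO4DA, and the log2 difference was -1.40 at the 10 and -0.96 at the 30 mg/kg/d dose. The maternal minus fetal slope under PFO5DoA was 0.37 per unit of log2(dose + 1) for Ppara and -0.30 for Ppargc1a.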

How the results depend on the processing

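For the 12 of 76 tests of the members that passed, direction held under every setting that gave a value. Ppara in fetal liver under PFO5DoA kept its call at 30 mg/kg/d, in its trend, against PFO4DA at 10 and 30 mg/kg/d and between livers, in 17, 33, 25, 24 and 26 other settings. At 10 mg/kg/d it lost it within the second run of dams alone (-0.97). No setting for the difference between livers used the run. Calls of Ppargc1a were less stable, and the causes were not tested. Within single runs, its fetal change at 62.5 mg/kg/d PFO4DA was -1.26 in the second, its maternal change at 10 mg/kg/d PFO5DoA was -2.93 in the first, and its trends were -0.13 and -0.19 (fetal PFO4DA), -0.20 and -0.26 (maternal PFO4DA) and -0.64 (maternal PFO5DoA, first run), none called. Its trends without the highest dose were -0.11 (fetal) and -0.18 (maternal) under PFO4DA, and on the rank of dose the maternal one was -0.22, not called. Its maternal PFO5DoA trend with the run as a covariate was -0.26, and its difference between livers was -0.32 with no dam block and -0.31 with no filter on low counts, not called. Results that gained a call were Ppara at 62.5 mg/kg/d PFO4DA with that dose and its controls alone (-0.46 fetal, 0.57 maternal), and fetal Ppara in the second run at 62.5 mg/kg/d (-0.45) and in its trend (-0.075).

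Leaving out single dams, ranges were -1.63 to -1.15 for fetal Ppargc1a at 62.5 mg/kg/d PFO4DA, -2.63 to -1.47 and -1.36 to -0.94 for maternal Ppargc1a at 10 and 30 mg/kg/d PFO5DoA, -0.32 to -0.23 and -0.26 to -0.22 for its maternal trends under PFO5DoA and PFO4DA, -0.35 to -0.27 for its difference between livers, and -0.074 to -0.053 for the fetal Ppara trend under PFO4DA. Without dam 2280 the maternal Ppargc1a change at 30 mg/kg/d PFO5DoA passed (adjusted p = 0.0439).

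The sum of both libraries of a dam holds no liver, and for Ppara it mostly reads the fetal library, where levels are higher. Set against the maternal results it turned the sign for PFO5DoA, to -0.73 at 10 and -0.89 at 30 mg/kg/d and -0.21 for the trend, and for the difference between chemicals to -1.03 and -0.71. For Ppargc1a the sum gave -0.88 at 10 mg/kg/d PFO5DoA and a trend of -0.067, not called, and -1.66 at 62.5 mg/kg/d PFO4DA, called. Among uncalled results, 103 of 1388 values under another setting had the other sign, the 5 above included.

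The replicate numbers do not pair the samples. Same-numbered libraries deviated together (r over 0.1) in 26 of 84 pairs for PFO4DA fetal, 13 of 84 for PFO4DA maternal, 15 of 48 for PFO5DoA fetal and 17 of 51 for PFO5DoA maternal liver. In that order, the median r of same-numbered pairs was -0.044, -0.025, -0.016 and 0.023. For pairs with different numbers it was 0.0098, 0.012, 0.00087 and -0.016. With the number as a replicate block, no call of the members changed, with -1.18 for fetal Ppara at 30 mg/kg/d PFO5DoA and -2.07 for maternal Ppargc1a at 10 mg/kg/d. No such block was fitted for the difference between livers, which has the dam as its block.

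Counts of all genes called moved by over 1.5 times in 73 of 274 counts, higher with DESeq2 in 17 of 38 and lower with the replicate block in 7 of 36. At 10 mg/kg/d PFO5DoA the maternal count was 1488, against 793 with that dose and its controls alone, 371 in the first run and 193 in the second. The fetal count was 1690 at 10 mg/kg/d (808 alone, 1704 in the first run and 330 in the second) and 3443 at 30 mg/kg/d (1709 in the second run). Trend counts were 4480 (maternal PFO5DoA), 4144 (fetal PFO5DoA), 287 (maternal PFO4DA) and 2117 (fetal PFO4DA), and fell to 1838, 2012, 89 and 1016 without the highest dose. Fetal genes that differed between chemicals at 10 mg/kg/d numbered 477, and 309 with no filter. Maternal Ppargc1a at 10 mg/kg/d PFO5DoA fell below the filter in the second run and where that dose and its controls were fitted alone. At 0 to 22 counts per maternal library, depth limits every statement on Ppargc1a.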
